A study of Mus musculus with 24 samples.

Results

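The 9 genes described here encode proteins that restrain MTORC1, the kinase complex at the centre of cell growth control. They are Ddit4 and Ddit4l, which encode the paralogs REDD1 and REDD2, the sestrin genes Sesn1, Sesn2 and Sesn3, the arginine sensor gene Castor1, the tuberous sclerosis genes Tsc1 and Tsc2, and Deptor, whose product binds MTOR itself. They were taken by gene name from a table of 55487 genes, and all 9 were among the 15828 genes that passed the filter on low counts.

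Poly(A) RNA was sequenced from mouse embryonic fibroblasts (MEFs) of 2 genotypes, wild type (WT) and AMPK knockout (AMPK KO, lacking both catalytic subunit genes, Prkaa1 and Prkaa2). Cells of each genotype received the vehicle DMSO, MK-8722 (a direct activator of AMPK) or torin1 (an inhibitor of the MTOR kinase), named MK8722 and Torin-1 in the labels, which gave 6 groups of 4 libraries. Doses and treatment times are not given in the labels and are not stated here. The 4 WT libraries of each treatment came from passages 12, 13, 14 and 15 and the 4 AMPK KO libraries from passages 16, 17, 18 and 19, so that genotype, cell line and passage cannot be told apart. No separate animals or derivations are named for the replicates, and p-values here measure the spread between passages of cultured cells.

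Total estimated counts ran from 26900240 to 34192685 per library and RNA integrity numbers from 9.7 to 10. The counts of the targeted genes do not check the genotype, since transcripts of a disrupted gene can still be counted outside the deleted part. With DMSO, Prkaa1 stood at 80.9 ± 2.00 CPM (counts per library size, scaled with TMM) in WT cells and at 70.9 ± 2.95 CPM in AMPK KO cells, and Prkaa2 at 4.74 ± 1.12 and 3.21 ± 0.970 CPM (SD, n = 4). Of the fibroblast markers, Col1a1, Vim and Fn1 stood at 319 CPM or more in each library, whereas Pdgfra did not exceed 6.49 CPM and Thy1 did not exceed 2.28 CPM. Under DMSO the 8 fibroblast markers summed to between 11154 and 15911 CPM per WT library and to between 4796 and 5371 CPM per AMPK KO library, and the summed level of 4 endothelial markers, which came mostly from Kdr, was 0.807 to 1.21 CPM in WT under DMSO and 4.36 to 8.53 CPM under MK-8722. Over the 24 libraries, 4 epithelial markers summed to 1.40 to 6.87 CPM, 4 leukocyte markers, nearly all Cd68, to 1.13 to 4.09 CPM, and 4 muscle markers, nearly all Des, to 0.366 to 3.19 CPM. The part of these differences in the results below was not tested, and in these bulk libraries fewer cells of a type and less RNA per cell cannot be told apart. The leukocyte genes Ptprc, Adgre1 and Cd3e, the muscle gene Myod1 and the endothelial gene Tie1 were at or near 0 in each library.

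MTORC1 is switched on at the lysosome by the small GTPase RHEB, which the TSC1-TSC2 complex turns off, and by the Rag GTPases, which report amino acid supply. REDD1 and REDD2 act through the TSC complex under stress, sestrins and CASTOR1 bind GATOR2 when leucine or arginine is scarce, and DEPTOR binds the MTOR complexes directly. AMPK restrains the same pathway by phosphorylating TSC2 and the MTORC1 subunit RPTOR.

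In WT cells Ddit4 and Sesn2, the stress-induced members, fell under both drugs, 1.92-fold and 1.51-fold with MK-8722 and 19.9-fold and 9.48-fold with torin1, whereas Tsc1 rose 1.56-fold and 1.60-fold. In AMPK KO cells torin1 again lowered Ddit4 and Sesn2 and raised Tsc1, while with MK-8722 Deptor fell 1.54-fold and the log2 differences of Ddit4, Sesn2 and Tsc1, 0.41, 0.41 and -0.10, did not pass the test (the first 2 passed it with a block for passage). A gene was called where its fold change reached 1.2 and its p-value from the quasi-likelihood test of edgeR, adjusted over all tested genes by the Benjamini-Hochberg method, was under 0.05. With MK-8722 in WT, 7 of the 9 genes were called, 2 higher and 5 lower, against 15.7% of all tested genes, and with MK-8722 in AMPK KO 2 were called, both lower, against 1.56%. With passage as a replicate block Ddit4 and Sesn2 were also called there, both higher (adjusted p = 0.00451 and 0.00447). The share of all genes called in that fit is not given here, and 1.56% belongs to the main fit. With torin1, 6 of 9 were called in WT, 2 higher and 4 lower, against 47.6% of all genes, and 5 of 9 in AMPK KO, 3 higher and 2 lower, against 43.5%. Under DMSO, 5 of 9 were lower in AMPK KO than in WT, against 26% of all genes, and none was called higher, against 30.9%. In either direction 56.9% of all genes were called. The response to MK-8722 differed between the genotypes in 4 of 9 genes, against 12.8% of all genes, and the response to torin1 in 4 of 9, against 7.07%. Within a genotype the comparisons of MK-8722 and of torin1 share their DMSO libraries.

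**Figure D1:**
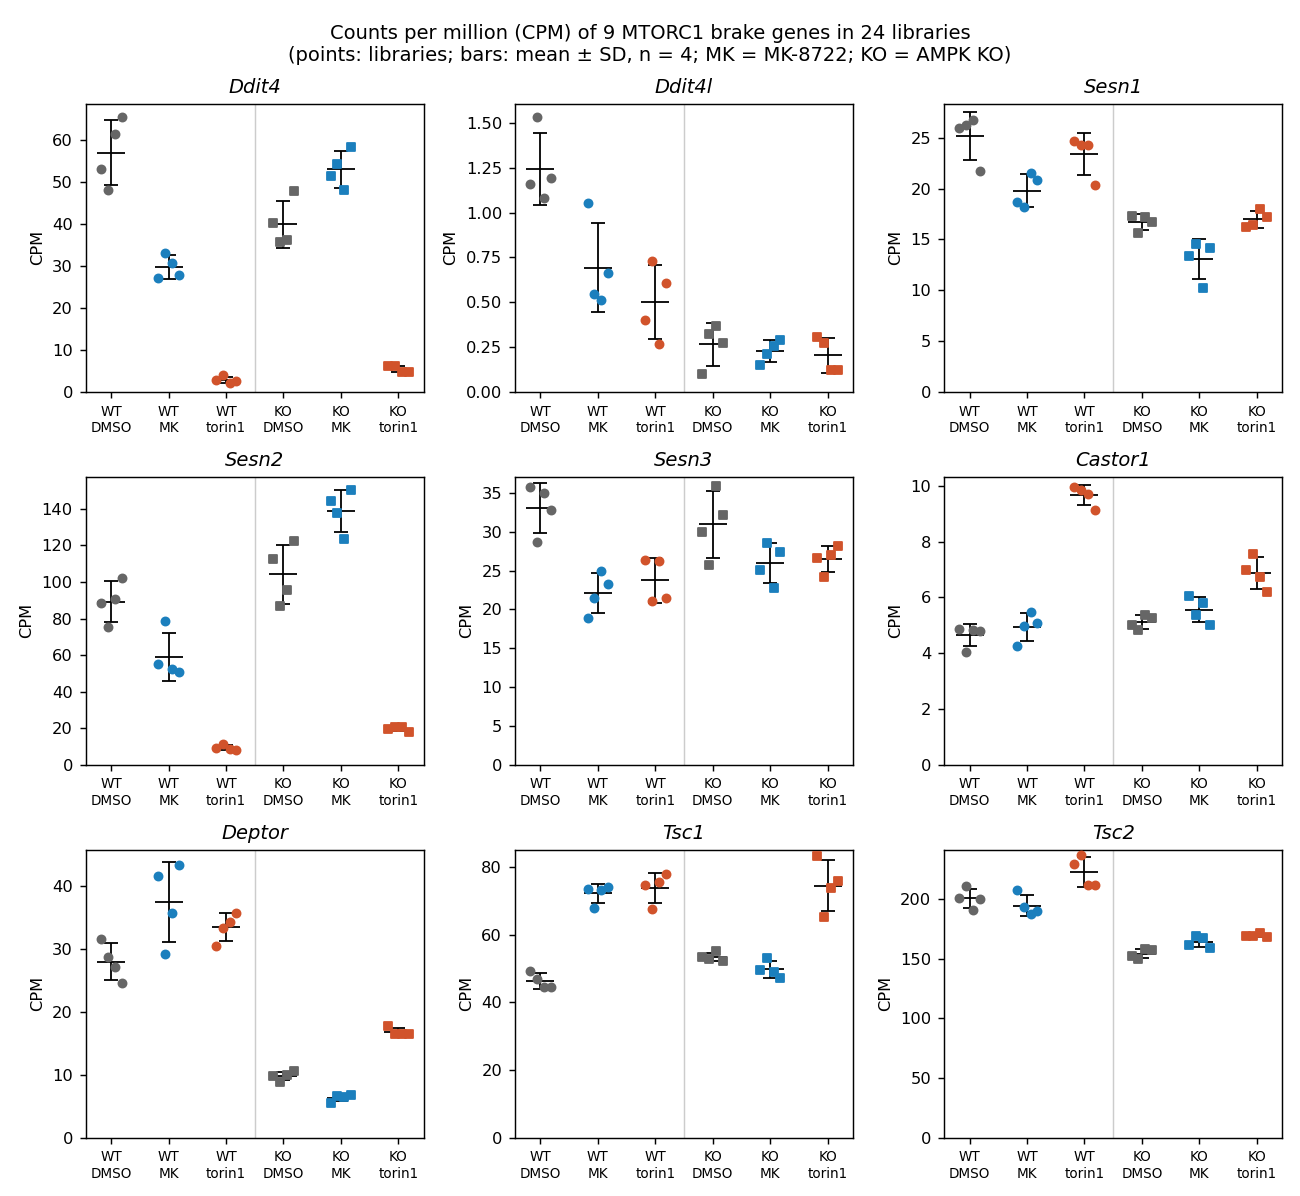
CPM (vertical axes, from 0) of the 9 genes in the 6 groups, with 1 point per library and bars for mean ± SD (n = 4). Ddit4 and Sesn2 dropped to single or low double digits with torin1 in both genotypes, Tsc1 was higher with torin1 in both genotypes but with MK-8722 only in WT, and Deptor was low in every AMPK KO library.

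The plot of CPM by library shows the levels that the following values describe. Ddit4 (GRCm38, chr10:59949669-59951834, minus strand) is a gene of the stress and hypoxia responses with 1 annotated transcript. In WT it was at 53.1, 48.2, 61.3 and 65.5 CPM with DMSO, at 27.2, 33.2, 30.8 and 27.8 CPM with MK-8722, and at 2.86, 3.93, 2.10 and 2.59 CPM with torin1. In AMPK KO it was at 40.3, 35.7, 36.1 and 47.8 CPM with DMSO, at 51.4, 54.3, 48.0 and 58.2 CPM with MK-8722, and at 6.14, 6.09, 4.81 and 4.76 CPM with torin1. No library of a drug group overlapped the DMSO group of its genotype, and MK-8722 lay below DMSO in WT but above it in AMPK KO.

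Ddit4 fell 1.92-fold with MK-8722 in WT (log2 fold change -0.94, SE 0.12, adjusted p = 1.41e-06). In AMPK KO its log2 difference with MK-8722 was 0.41 (95% interval 0.17 to 0.64), with an adjusted p of 0.0542 that missed the threshold. With passage as a replicate block that adjusted p was 0.00451, with DESeq2 in place of edgeR it was 0.0251, and without AMPK KO DMSO replicate 4, the highest of its group, it was 0.0296. The log2 response to MK-8722 in AMPK KO minus that in WT was 1.35 (SE 0.16, adjusted p = 3.26e-06). Within passages, MK-8722 lay below DMSO in 4 of 4 WT passages and above DMSO in 4 of 4 AMPK KO passages.

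With torin1, Ddit4 fell 19.9-fold in WT (adjusted p = 4.69e-16) and 7.33-fold in AMPK KO (adjusted p = 1.35e-13), and the response differed by 1.44 on the log2 scale (SE 0.20, adjusted p = 0.000104). In WT, 5 of the 15828 tested genes had a larger fall with torin1, and in AMPK KO 18 had one. Torin1 also lay below MK-8722, 10.4-fold in WT and 9.72-fold in AMPK KO. Under DMSO, AMPK KO was 1.43-fold below WT (adjusted p = 0.000315), and the groups did not overlap.

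Ddit4l (chr3:137621612-137628333, plus strand), the paralog of Ddit4, was the least abundant of the 9. Its counts were 30 to 42 per library in WT with DMSO, 13 to 27 with MK-8722 and 9 to 23 with torin1, and 3 to 12 across the AMPK KO libraries. In CPM its mean was 1.24 ± 0.202 in WT with DMSO, 0.694 ± 0.247 with MK-8722 and 0.501 ± 0.208 with torin1, against 0.264 ± 0.118, 0.227 ± 0.0617 and 0.205 ± 0.0979 in AMPK KO (SD, n = 4).

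Under DMSO Ddit4l was 4.61-fold lower in AMPK KO (log2 fold change -2.21, SE 0.34, adjusted p = 3.28e-06). In WT it fell 2.47-fold with torin1 (adjusted p = 0.000821) and 1.79-fold with MK-8722 (adjusted p = 0.0406). The MK-8722 call was lost without any of 6 of the 8 libraries compared (WT DMSO replicates 1, 2 and 4 and WT MK-8722 replicates 2, 3 and 4), where the adjusted p reached 0.118, and both WT calls were lost with an offset for transcript length, with adjusted p-values of 0.484 for MK-8722 and 0.0647 for torin1. The MK-8722 call was also lost with DESeq2 and without the filter on low counts. In AMPK KO the 95% intervals of the log2 difference, -1.09 to 0.62 with MK-8722 and -1.24 to 0.50 with torin1, hold both a fall and a rise.

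Among the sestrins, Sesn2 (chr4:132492032-132510501, minus strand), the sestrin best known as a leucine sensor and stress-induced gene, moved with Ddit4 in the drug comparisons. In WT it was at 88.5, 75.4, 90.7 and 102.4 CPM with DMSO, at 55.1, 78.6, 52.2 and 50.7 CPM with MK-8722, and at 9.43, 11.2, 8.69 and 8.35 CPM with torin1. In AMPK KO it was at 112, 86.7, 95.8 and 122 CPM with DMSO, at 144, 138, 123 and 150 CPM with MK-8722, and at 19.5, 20.6, 20.9 and 17.7 CPM with torin1. In WT, MK-8722 replicate 2 (passage 12) lay within the range of the DMSO group and the other 3 MK-8722 libraries lay below it, while in AMPK KO the MK-8722 group lay just above the DMSO group.

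Sesn2 fell 1.51-fold with MK-8722 in WT (log2 fold change -0.60, SE 0.12, adjusted p = 7e-04), and the log2 fold change was -0.76 without MK-8722 replicate 2. In AMPK KO its log2 difference was 0.41 (95% interval 0.17 to 0.66, adjusted p = 0.0626), which did not pass the test, with an adjusted p of 0.00447 with passage as a replicate block, of 0.0271 with DESeq2 and of 0.0447 without AMPK KO DMSO replicate 4. The response to MK-8722 differed between the genotypes by 1.01 on the log2 scale (SE 0.17, adjusted p = 0.000234). With torin1 it fell 9.48-fold in WT (adjusted p = 1.45e-14) and 5.30-fold in AMPK KO (adjusted p = 9.43e-13), a difference between genotypes of 0.84 (SE 0.19, adjusted p = 0.00647). In WT, 14 tested genes fell further with torin1. Under DMSO, AMPK KO and WT overlapped and the log2 difference was 0.22 (95% interval -0.03 to 0.47), which with scaling by library size alone was 0.36 and called (adjusted p = 0.0102).

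**Figure D2:**
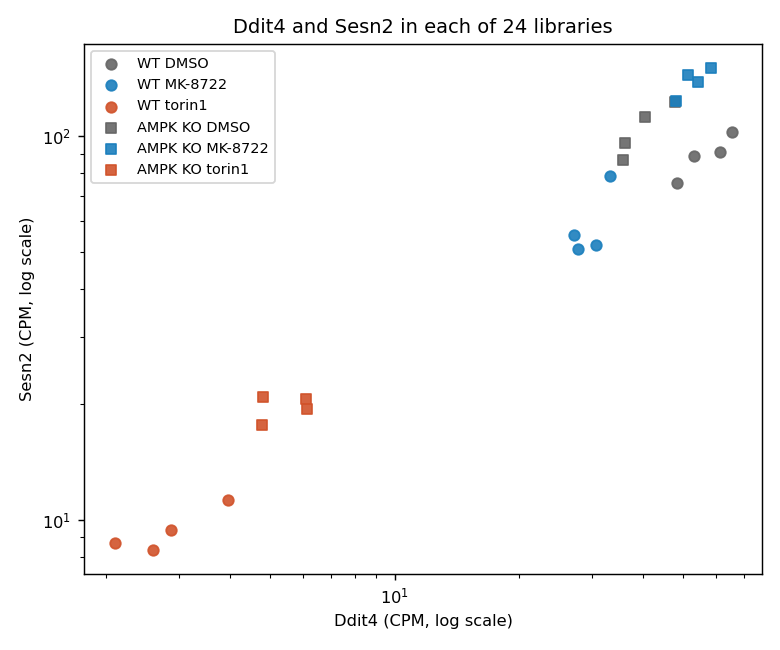
Sesn2 against Ddit4 in CPM (both axes logarithmic), with 1 point per library, circles for WT and squares for AMPK KO. The torin1 libraries of both genotypes lie apart at the lower left, below 7 CPM of Ddit4 and 21 CPM of Sesn2, and the MK-8722 libraries lie to the left of the DMSO libraries in WT (below 34 CPM of Ddit4) and at the upper right in AMPK KO.

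Ddit4 and Sesn2 also deviated together within groups. Over the 24 libraries, the deviations of log2 CPM from the group means had a Pearson r of 0.72 between both genes, the highest of the 36 pairs of the 9 genes, and 0.59 between Sesn1 and Sesn3. The lowest was -0.50, between Sesn2 and Tsc1. These values describe libraries that share passages and drug treatments and carry no test.

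Ddit4 and Sesn2 moved in the same direction in each drug comparison, though not between the genotypes under DMSO. For this reason the bases before the outermost annotated start of each are shown, 186 for Ddit4 (chr10:59951835-59952020) and 205 for Sesn2 (chr4:132510502-132510706), from the RefSeq promoter table (GRCm38.p6), both on the minus strand and written 5′ to 3′. Capitals mark the letters ACGTG, the core of the hypoxia response element.
Ddit4: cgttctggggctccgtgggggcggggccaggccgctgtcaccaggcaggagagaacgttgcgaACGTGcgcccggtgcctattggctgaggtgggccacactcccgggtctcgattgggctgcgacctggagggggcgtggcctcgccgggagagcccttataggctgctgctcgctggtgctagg
Sesn2: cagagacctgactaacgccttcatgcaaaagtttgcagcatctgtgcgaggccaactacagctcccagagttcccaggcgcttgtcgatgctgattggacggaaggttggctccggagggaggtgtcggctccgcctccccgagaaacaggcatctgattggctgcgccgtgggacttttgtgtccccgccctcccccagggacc
The Ddit4 window held ACGTG at positions -187 to -183 from the RefSeq start (counted as 0), and the Sesn2 window held no match to the 6 motifs searched on both strands. These were TGATGNAA (the binding letters of ATF4, in 3.97% of 32851 RefSeq windows of 300 bases, 250 before and 50 from the start), GTCACGTG (the CLEAR-type E-box of TFEB, in 2.25%), CACGTG (the E-box, in 7.15%), ACGTG (in 19.6%, which includes each CACGTG), TGACGTCA (the cAMP response element, in 1.79%) and GTAAACA (the letters of FOXO factors, in 3.65%). The 9 windows found for 8 of the 9 genes held 3 matches in all, of which ACGTG also lay in the Castor1 window, on the reverse strand at -221 to -217 (not shown). No window was found for Deptor.

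Sesn1 (chr10:41809935-41908424, plus strand), a sestrin known as a target of p53 and of FOXO factors, was at 26.0, 26.2, 26.8 and 21.7 CPM in WT with DMSO and at 18.6, 18.2, 21.5 and 20.8 CPM with MK-8722. In AMPK KO it was at 17.3, 15.6, 17.2 and 16.7 CPM with DMSO and at 13.4, 14.6, 10.3 and 14.1 CPM with MK-8722. In both genotypes each MK-8722 library lay below each DMSO library, and each AMPK KO library under DMSO lay below each WT library.

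With MK-8722 Sesn1 fell by 0.35 on the log2 scale in WT (SE 0.09, adjusted p = 0.00504) and by the same 0.35 in AMPK KO (SE 0.09, adjusted p = 0.0416), and the 95% interval of the difference between the genotypes was -0.27 to 0.26. The AMPK KO call was lost without any of 7 of its 8 libraries, each but MK-8722 replicate 2, with adjusted p-values of up to 0.123. It was also lost with an offset for transcript length, with the replicate number as a replicate block and in a fit of the compared libraries alone. With torin1 Sesn1 was at 20.3 to 24.7 CPM in WT and 16.3 to 18.0 CPM in AMPK KO, both overlapping DMSO, with 95% intervals of the log2 difference of -0.29 to 0.08 and -0.16 to 0.21. Torin1 libraries lay 1.29-fold above MK-8722 libraries in AMPK KO (adjusted p = 0.0012), a call lost without AMPK KO MK-8722 replicate 3. Under DMSO, Sesn1 was lower in AMPK KO than in WT (log2 fold change -0.59, SE 0.09, adjusted p = 2.83e-06).

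Sesn1 has 2 coding transcripts with separate starts, Sesn1-202 from chr10:41809935 and Sesn1-201 from chr10:41887439, which share their last position at 41908424. Under DMSO, Sesn1-202 was at 6.48, 6.52, 7.42 and 5.82 TPM (Salmon's transcript abundance, which corrects for length) in WT and at 3.95, 3.30, 3.57 and 3.16 TPM in AMPK KO. Sesn1-201 was at 5.87, 5.92, 4.74 and 4.34 TPM in WT and at 5.03, 4.88, 5.95 and 5.96 TPM in AMPK KO. The transcript from the upstream start was lower in each AMPK KO library, whereas the transcript from the downstream start overlapped between the genotypes.

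Sesn1-201 made up 44.2 ± 4.17% of the TPM of Sesn1 in WT and 60.9 ± 3.99% in AMPK KO under DMSO (SD, n = 4), a difference of 16.7 percentage points. Its exact two-sided permutation p was 0.0286, the smallest that 4 libraries against 4 can give, and 0.143 after Benjamini-Hochberg adjustment over 20 share tests, so that it did not pass. The 250 bases before the downstream start (chr10:41887189-41887438, GRCm38.p6, plus strand) are shown because the transcripts differ in where they begin, and they held no match to the motifs above.
Sesn1 downstream start: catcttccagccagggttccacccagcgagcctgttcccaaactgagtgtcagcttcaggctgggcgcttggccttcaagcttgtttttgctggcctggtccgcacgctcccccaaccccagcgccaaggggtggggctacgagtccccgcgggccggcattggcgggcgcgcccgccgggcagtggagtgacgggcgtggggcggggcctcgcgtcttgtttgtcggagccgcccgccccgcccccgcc
The other window lay around a RefSeq start inside the annotated Sesn1-202, and there the letters of FOXO factors lay on the reverse strand, 22 to 28 bases past that start (in capitals, with neighbouring bases).
Sesn1 after the upstream start: cttctacTGTTTACcagcct

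**Figure D3:**
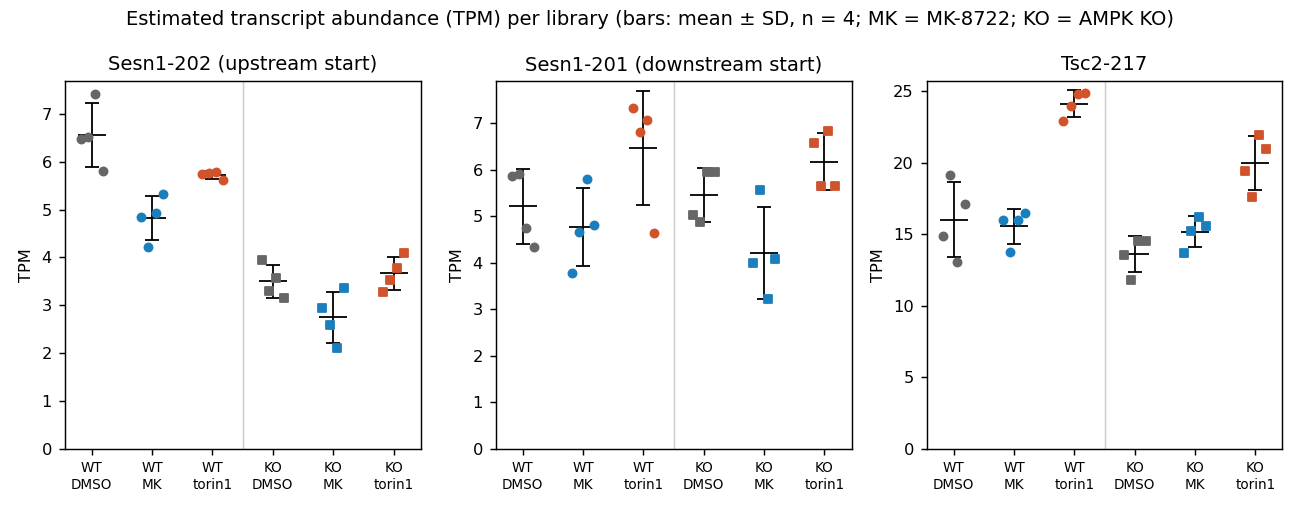
Estimated TPM (vertical axes, from 0) of Sesn1-202, Sesn1-201 and Tsc2-217 per library, with bars for mean ± SD (n = 4). Sesn1-202 lies at or below 4.09 TPM in the 12 AMPK KO libraries and at or above 4.22 TPM in the 12 WT libraries, Sesn1-201 overlaps between genotypes, and Tsc2-217 is higher with torin1 than with DMSO in both genotypes.

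Sesn3 (chr9:14275067-14333101, plus strand), a sestrin known as a FOXO target, was at 28.7 to 35.7 CPM in WT with DMSO, at 18.9 to 24.9 CPM with MK-8722 and at 21.1 to 26.4 CPM with torin1. In AMPK KO the ranges were 25.7 to 35.9, 22.7 to 28.6 and 24.2 to 28.1 CPM. Both drug groups lay below DMSO in WT and overlapped with it in AMPK KO.

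In WT, Sesn3 fell 1.49-fold with MK-8722 (log2 fold change -0.58, SE 0.10, adjusted p = 0.000165) and 1.39-fold with torin1 (log2 fold change -0.48, SE 0.10, adjusted p = 0.000315). In AMPK KO the log2 differences were -0.26 (adjusted p = 0.192) and -0.23 (adjusted p = 0.0606), and neither difference between the genotypes passed the test (adjusted p = 0.137 for MK-8722 and 0.311 for torin1). The torin1 difference in AMPK KO was called without DMSO replicate 2 (adjusted p = 0.0117) or without torin1 replicate 4 (adjusted p = 0.0247), and the MK-8722 difference between the genotypes with passage as a replicate block (adjusted p = 0.00221). Sesn3 has transcripts of very different length, and with an offset for transcript length the torin1 call in WT was lost, at a log2 fold change of -0.11 with an adjusted p of 0.516. The longest, Sesn3-204, was at 5.01 ± 0.486 TPM in WT with DMSO and 3.65 ± 0.475 TPM with torin1 (SD, n = 4). Its share of the TPM of Sesn3 was 60.8 ± 13.8% and 43.0 ± 4.06% (exact permutation p = 0.0286, adjusted p = 0.143). Over all libraries Sesn3-204 held 91.2% of the estimated counts of Sesn3 but 53.6% of its TPM. The short Sesn3-205 (505 bases) held 23.2% of the TPM. Its mean count was 13.6 in WT with DMSO and 18.3 with torin1, so the shares rest in part on few reads.

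Castor1 (chr11:4218225-4222409, plus strand), the arginine sensor with 1 annotated transcript, was at 4.88, 4.06, 4.83 and 4.8 CPM in WT with DMSO and at 9.97, 9.84, 9.72 and 9.15 CPM with torin1. In AMPK KO it was at 5.0, 4.82, 5.37 and 5.25 CPM with DMSO and at 6.97, 7.56, 6.73 and 6.2 CPM with torin1. Torin1 libraries lay above DMSO libraries in both genotypes, and those of WT lay above those of AMPK KO.

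Castor1 rose 2.08-fold with torin1 in WT (log2 fold change 1.06, SE 0.09, adjusted p = 2.99e-10) and 1.34-fold in AMPK KO (log2 fold change 0.42, SE 0.09, adjusted p = 0.000204). The response was smaller in AMPK KO by 0.63 on the log2 scale, with a coded difference of -0.63 (SE 0.12, adjusted p = 0.00222). With MK-8722 it was at 4.24 to 5.46 CPM in WT and 5.02 to 6.04 CPM in AMPK KO, and the 95% intervals of the log2 difference from DMSO were -0.10 to 0.28 and -0.06 to 0.30. Torin1 lay 1.96-fold above MK-8722 in WT and 1.23-fold in AMPK KO (adjusted p = 0.00428), and the second call was lost without AMPK KO MK-8722 replicate 4 or AMPK KO torin1 replicate 2. That call was also lost in a fit of the compared libraries alone.

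Tsc1 (chr2:28641228-28691167, plus strand) encodes hamartin, the stabilising subunit of the TSC complex. In WT it was at 49.4, 46.8, 44.5 and 44.7 CPM with DMSO, at 73.5, 67.9, 73.3 and 74.1 CPM with MK-8722, and at 74.8, 67.6, 75.5 and 77.9 CPM with torin1. In AMPK KO it was at 53.6, 52.8, 55.1 and 52.2 CPM with DMSO, at 49.6, 53.1, 49.1 and 47.2 CPM with MK-8722, and at 83.3, 65.1, 74.0 and 75.8 CPM with torin1. The torin1 libraries of both genotypes and the WT MK-8722 libraries lay above 65 CPM, and the other 12 libraries lay below 56 CPM.

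Tsc1 rose 1.56-fold with MK-8722 in WT (log2 fold change 0.64, SE 0.06, adjusted p = 1.99e-08). In AMPK KO the 95% interval of its log2 difference with MK-8722 was -0.22 to 0.02, and the response differed between the genotypes by -0.74 on the log2 scale (SE 0.08, adjusted p = 1.37e-06). With torin1 it rose 1.60-fold in WT (adjusted p = 9.01e-10) and 1.40-fold in AMPK KO (adjusted p = 2.36e-07), and the difference between the genotypes, -0.19, had an adjusted p of 0.151. Torin1 and MK-8722 overlapped in WT, with a 95% interval of the log2 difference of -0.09 to 0.15, whereas torin1 lay above MK-8722 by 0.58 on the log2 scale in AMPK KO (adjusted p = 1.03e-08). Under DMSO AMPK KO lay above WT by 0.21 on the log2 scale, with an adjusted p of 0.00391 and a fold change of 1.15 that was under the threshold of 1.2 and was called, at 0.35 on the log2 scale, with scaling by library size alone.

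Tsc2 (chr17:24595816-24632630, minus strand) encodes tuberin, the subunit that acts on RHEB and that AMPK phosphorylates. It was at 191 to 211 CPM in WT with DMSO, at 187 to 208 CPM with MK-8722 and at 212 to 237 CPM with torin1. In AMPK KO the ranges were 150 to 158, 159 to 169 and 168 to 172 CPM. Each AMPK KO library was below each WT library.

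Under DMSO Tsc2 was lower in AMPK KO (log2 fold change -0.38, SE 0.04, adjusted p = 1.48e-08), which scaling by library size alone brought to -0.24, under the fold threshold. Its differences with torin1 were 0.15 in WT (adjusted p = 0.00283) and 0.14 in AMPK KO (adjusted p = 0.00667) on the log2 scale, both below the fold threshold, and with MK-8722 the 95% intervals were -0.13 to 0.04 and 0.01 to 0.18. The transcript with the largest share, Tsc2-217, was at 13.0 to 19.1 TPM in WT with DMSO and 22.9 to 24.8 TPM with torin1, and at 11.8 to 14.5 and 17.6 to 21.96 TPM in AMPK KO, with no overlap in either genotype. Its share of the TPM of Tsc2 was 17.7 ± 2.40% and 23.2 ± 2.19% (DMSO, then torin1) for WT, and 16.9 ± 0.969% and 22.7 ± 2.15% for AMPK KO, with an exact permutation p of 0.0286 in each genotype and an adjusted p of 0.143. Tsc2 has 22 annotated transcripts, and how short reads are divided among them is an estimate.

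Deptor (chr15:55112317-55259271, plus strand) was the member called in opposite directions with MK-8722 in the 2 genotypes. In WT it was at 31.6, 28.8, 27.2 and 24.6 CPM with DMSO, at 41.7, 29.3, 35.7 and 43.4 CPM with MK-8722, and at 30.5, 33.4, 34.3 and 35.7 CPM with torin1. In AMPK KO it was at 9.75, 8.93, 10.0 and 10.6 CPM with DMSO, at 5.54, 6.71, 6.46 and 6.82 CPM with MK-8722, and at 17.9, 16.5, 16.6 and 16.5 CPM with torin1. In AMPK KO the 3 groups were separate, with MK-8722 lowest and torin1 highest, while in WT both drug groups overlapped with DMSO.

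With MK-8722 Deptor rose 1.34-fold in WT (log2 fold change 0.42, SE 0.09, adjusted p = 0.00139) and fell 1.54-fold in AMPK KO (log2 fold change -0.62, SE 0.11, adjusted p = 0.00396), and the difference between the genotypes was -1.05 (SE 0.15, adjusted p = 2.01e-05). Within passages, MK-8722 lay above DMSO in 4 of 4 WT passages and below DMSO in 4 of 4 AMPK KO passages. With torin1 it rose 1.71-fold in AMPK KO (adjusted p = 7.28e-07), while in WT the log2 difference of 0.26 lay just under the fold threshold, with an adjusted p of 0.0207 (0.00383 with passage as a replicate block, where the gene was called). The difference between the genotypes in the response to torin1, 0.52 (SE 0.14, adjusted p = 0.0194), was lost without any of 6 of 16 libraries and reached an adjusted p of 0.0978 without WT torin1 replicate 1. The others were WT torin1 replicate 3, AMPK KO DMSO replicates 3 and 4, and AMPK KO torin1 replicates 2 and 4. Torin1 lay 2.64-fold above MK-8722 in AMPK KO (adjusted p = 1.05e-10), and under DMSO Deptor was 2.85-fold lower in AMPK KO than in WT (log2 fold change -1.51, SE 0.10, adjusted p = 3e-12).

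**Figure D4:**
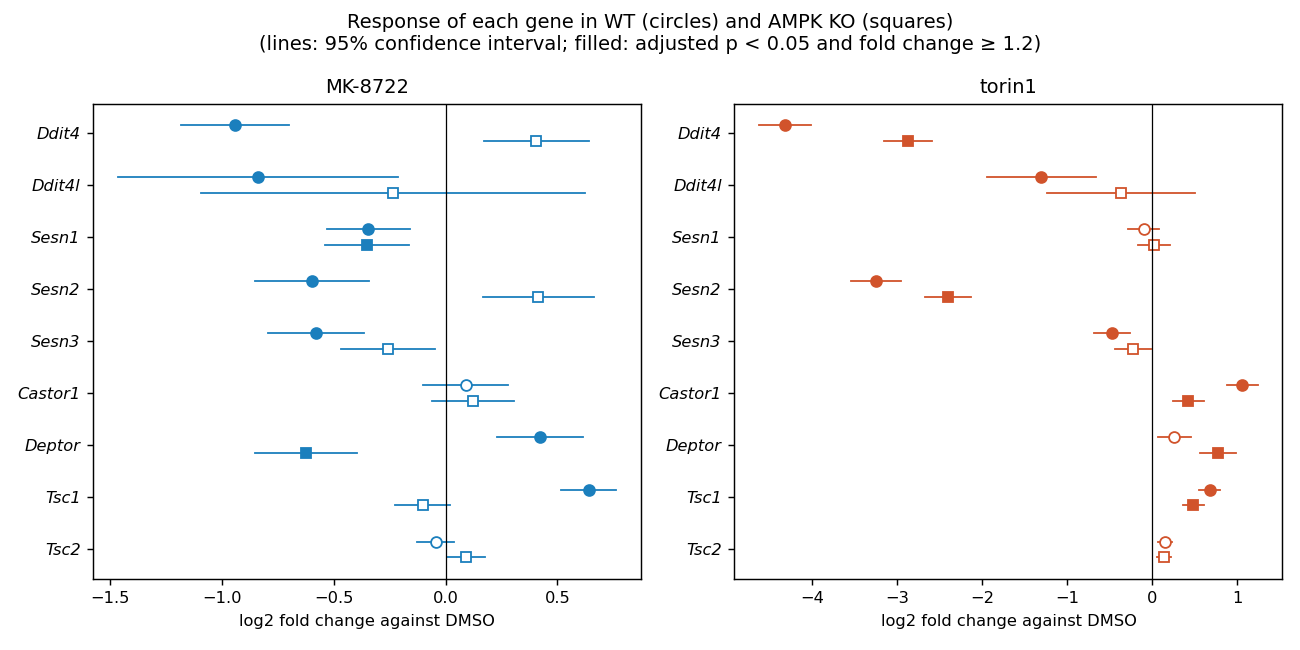
Log2 fold change against DMSO (horizontal axes) of the 9 genes with MK-8722 and with torin1, for WT (circles) and AMPK KO (squares), with 95% confidence intervals as lines and filled symbols for called genes. With MK-8722, Ddit4 and Sesn2 lie at -0.94 and -0.60 in WT and at 0.41 and 0.41 in AMPK KO, Deptor lies at 0.42 and -0.62, and with torin1 the responses of both genotypes point the same way in each called gene.

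Set against each other directly, torin1 and MK-8722 differed in 3 of the 9 genes in WT (Ddit4 and Sesn2 lower, Castor1 higher with torin1), against 45.7% of all genes, and in 6 of 9 in AMPK KO (Ddit4 and Sesn2 lower, Sesn1, Castor1, Deptor and Tsc1 higher), against 45.5%. Ddit4l, Sesn3 and Tsc2 were called in neither genotype.

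On the TPM scale, Tsc2 was the most abundant of the 9 in WT with DMSO, at 90.4 ± 6.74 TPM, followed by Ddit4 at 51.9 ± 7.03, Sesn2 at 39.2 ± 4.94, Sesn1 at 11.8 ± 1.09, Tsc1 at 9.71 ± 0.499, Sesn3 at 8.52 ± 1.81, Deptor at 5.48 ± 0.788, Castor1 at 4.76 ± 0.397 and Ddit4l at 0.925 ± 0.271 TPM (SD, n = 4). In AMPK KO with DMSO, Sesn2 at 49.1 ± 7.59 TPM stood above Ddit4 at 39.0 ± 5.46 TPM, but their ranges overlapped. With torin1 the order of AMPK KO cells was Tsc2 at 88.3 ± 6.80, Tsc1 at 17.8 ± 2.07, and Sesn2 at 9.96 ± 0.745 TPM, and Ddit4, at 5.71 ± 0.821 TPM, stood below Castor1 at 8.10 ± 0.623 TPM.

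Among 10055 genes with a mean of at least 5 CPM, the genes whose log2 CPM over the 24 libraries followed a member most closely were found by Pearson r, which here mostly reads the differences between the 6 groups. Closest to Ddit4 were Jdp2 (r 0.985), Elavl1 (0.983) and Ppp2ca (0.982), and closest to Sesn2 were Yars, a cytosolic tRNA synthetase gene (0.988), Ppp1r15b (0.987) and Psat1, of serine synthesis (0.985). Deptor was followed by Rb1cc1, an autophagy initiation gene (0.981), Bach2 (0.980) and Ankrd44 (0.979), and Tsc1 by the lysosomal peptidase gene Dpp7 (0.965), Hs1bp3 (0.953) and Crebrf (0.953). Castor1 was nearest to Brat1 (0.944), Polm (0.927) and Stoml1 (0.926), Tsc2 to Sorcs2 (0.979), Erbb2 (0.975) and Ror2 (0.969), and Sesn1 to Btd (0.932), Zfp821 (0.932) and Cenpj (0.919). The closest genes were further off for Ddit4l, with Asf1a (0.898), Stk38 (0.897) and Zfp512b (0.892), and for Sesn3, with Bbx (0.830), Ctcf (0.800) and Chd9 (0.790).

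Other genes of the pathway were read from lists. Of 12 tested genes of other MTORC1 inhibitors (the GATOR1 and KICSTOR subunits, Castor2, Grb10, Akt1s1 and others), 1 rose and 2 fell with MK-8722 in WT (median log2 fold change 0.00, against 0.00 over all genes, of which 15.7% were called), and 1 rose in AMPK KO (1.56% of all genes called). With torin1 3 of them rose and 4 fell in WT (median 0.07, against 0.04 over all genes, of which 47.6% were called) and 1 rose and 3 fell in AMPK KO (43.5% of all genes called). The largest changes were those of Itfg2, a KICSTOR subunit (-0.44 with MK-8722 in WT), Castor2, the paralog of Castor1 (-1.04 with torin1 in WT, from 34.8 ± 4.60 to 17.0 ± 2.09 CPM), and Grb10, an adaptor that MTORC1 phosphorylates (-1.02 with torin1 and 0.43 with MK-8722 in AMPK KO, and -1.93 between AMPK KO and WT under DMSO, where 4 of 12 were higher and 3 lower and 56.9% of all genes were called). Castor2 thus fell with torin1 in WT while Castor1 rose. In AMPK KO, where Castor1 rose too, Castor2 was at 59.4 ± 1.88 CPM with DMSO and 32.7 ± 2.35 CPM with torin1 (SD, n = 4).

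Of the 7 genes of GATOR2 and RHEB, which act for MTORC1, 1 rose with MK-8722 in WT, Wdr59 (log2 fold change 0.45, with 15.7% of all genes called), and none was called in AMPK KO (1.56% of all genes). With torin1 2 rose and 3 fell in WT (median 0.05, against 0.04 over all genes, of which 47.6% were called) and 3 rose and 2 fell in AMPK KO (median 0.10, against 0.06, with 43.5% called), and the largest change in both was that of the RHEB paralog Rhebl1 (1.09 and 1.11). Rhebl1 was also the largest of 1 higher and 2 lower genes between AMPK KO and WT under DMSO (0.39), where 56.9% of all genes were called.

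Ddit4 and Sesn2 are known targets of ATF4, the transcription factor of the integrated stress response. Of a list of 16 other genes of the ATF4 response, Atf4 itself among them, none rose and 14 fell with torin1 in WT (median log2 fold change -1.91, against 0.04 over all genes, of which 21.1% fell) and none rose and 15 fell in AMPK KO (median -1.99, against 0.06, with 17.6% of all genes lower), with the cystine carrier gene Slc7a11 furthest in both (-6.28 and -5.46). With MK-8722 in WT, where Ddit4 and Sesn2 fell, 2 of the list rose, 1 fell and 13 were not called. The median was -0.16, with 15.7% of all genes called, and Ddit3 rose by 1.14. In AMPK KO 4 rose and none fell with MK-8722 (median 0.44, with 1.56% of all genes called), where Stc2 rose by 1.26. The response to MK-8722 was called higher in AMPK KO than in WT for 6 of the 16 and lower for none (median difference 0.65, against 0.00 over all genes, of which 5.12% were higher and 7.66% lower), and the difference of Ddit4, 1.35, and of Sesn2, 1.01, lay above the median of the list. Between AMPK KO and WT under DMSO 4 were higher and 3 lower, with Ddit3 at -0.76, where 56.9% of all genes were called. The list was chosen with earlier results of these data known. Whether ATF4 had a part in the changes of Ddit4 and Sesn2 was not tested.

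Sestrins are also known as p53 and FOXO targets. Of 14 p53-regulated genes, 1 rose and 11 fell with torin1 in WT (median -0.81, against 0.04 over all genes, of which 21.1% fell), with Eda2r at -1.47, and none rose and 9 fell in AMPK KO (median -0.34, against 0.06, with 17.6% of all genes lower), with Aen at -1.16. With MK-8722 1 rose and 3 fell in WT (median -0.15, with 15.7% of all genes called), with Perp at 1.17, and none was called in AMPK KO (1.56% of all genes). Between AMPK KO and WT under DMSO 3 were higher and 9 lower (median -0.41, against 0.02 over all genes, of which 26% were lower), with Perp at -3.97. There Sesn1 stood at -0.59, while Sesn2 at 0.22 and Sesn3 at -0.09 were not called. With torin1 Sesn1 was at -0.10 in WT and 0.02 in AMPK KO, neither called, and Sesn2 at -3.24 and -2.41. Sesn3 was at -0.48 in WT, a call lost with the length offset, and at -0.23 in AMPK KO, not called. Whether p53 had a part in these values was not tested.

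Of 12 FOXO-regulated genes, 9 rose and 1 fell with torin1 in each genotype, with Txnip at 2.54 in WT and Bcl6 at -1.74 in AMPK KO. The list's median was 0.56 in WT, against 0.04 over all genes, of which 26.6% rose and 21.1% fell, and 0.60 in AMPK KO, against 0.06 over all genes, of which 25.9% rose and 17.6% fell. Of the sestrins set beside it, Sesn3 fell with torin1 in WT (-0.48), a call lost with an offset for transcript length (-0.11). In AMPK KO Sesn3 was at -0.23 and was not called. Sesn1 was at -0.10 in WT and 0.02 in AMPK KO and was called in neither. With MK-8722 3 of the list rose and 3 fell in WT (15.7% of all genes called), with Txnip at -1.61, and none rose and 2 fell in AMPK KO (1.56% of all genes called), with Ccng2 at -0.82. Under DMSO 3 were higher and 2 lower in AMPK KO, with Pdk4 at 2.03, where 56.9% of all genes were called. Of 11 tested genes of the hypoxia and glucocorticoid responses, which also induce Ddit4, 2 rose and 5 fell with torin1 in each genotype (medians -0.31 in WT and -0.24 in AMPK KO, against 0.04 and 0.06 over all genes, of which 47.6% and 43.5% were called), with Vegfa at -1.49 in WT and Tsc22d3 at -1.32 in AMPK KO. With MK-8722 3 rose and 3 fell in WT (15.7% of all genes called), with Tsc22d3 at -1.0, and 3 rose and 1 fell in AMPK KO (1.56% of all genes called), with Ankrd37 at -0.79. Under DMSO 2 were higher and 5 lower in AMPK KO, with Pdk1 at -1.58, where 56.9% of all genes were called. Whether these responses or FOXO factors had a part in the changes of Ddit4 and the sestrins was not tested.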

How the data were processed

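The authors prepared poly(A) libraries with the Universal Plus mRNA-seq kit, sequenced them as short paired-end reads, and ran the nf-core/rnaseq workflow with STAR and Salmon on GRCm38, with options for molecular identifiers. Values used were the deposited estimated counts of genes, which carry no normalization, and, for transcripts, estimated counts together with TPM as Salmon gives them. The TPM were deposited with 1 table per library. Copies left after the handling of identifiers, and the strand setting, are not given in the sources used here. The paper reports removal of batch effects with limma, without naming the batches. The labels used here do not divide the libraries into batches, and no batch term was fitted.

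Estimated counts were rounded, filtered with filterByExpr (15828 genes, which hold 99.96% of all counts), scaled with TMM, and fitted with edgeR 4.0.16 (quasi-likelihood, 6 group means, 24 libraries, R 4.3.3). Tests were two-sided with Benjamini-Hochberg adjustment over all tested genes. CPM use TMM-scaled library sizes, and log2 CPM a prior count of 2. Median log2 fold changes of all genes lay near 0, and scaling by library size alone put them at 0.14 and 0.12 with torin1 and at 0.15 between the genotypes. Shares of transcripts were compared by exact permutation tests (scipy 1.17.1), over the members with at least 2 transcripts of at least 0.2 TPM and 10% of the gene. The fit was tested on simulated counts. DESeq2 1.42.0 and limma 3.58.1 served the alternatives. No 2 libraries of a group agreed within sampling noise (chi-square per degree of freedom 3.52 to 26.5 over 36 pairs).

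Deviations from group means correlated above 0.1 in 15 of 24 pairs of libraries of the same passage and in 0 of 72 pairs of the same genotype from other passages. The main fit left this pairing by passage out. Passage was a block only in an alternative, whose values are printed where a call changed, as for Ddit4 and Sesn2 with MK-8722 in AMPK KO.

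The 9 genes and the 6 gene lists were chosen with earlier results of these data known. Genes outside the 9 were named by a rule, namely the targeted genes, the 3 closest genes by Pearson r for each member, and the called gene of each list with the largest log2 fold change in each drug comparison with DMSO and between the genotypes. Kics2 was not found by name and Zbtb16 did not pass the filter.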

Additional observations from a re-analysis of the deposited data

Results flagged for a closer look

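Of 54 sets of 4 libraries (9 genes in 6 groups), 6 held a library that lay far from the other 3 by Dixon's ratio, where chance gives about 1 in 20. Of these, 4 came from WT passage 12. Sesn1 was at 21.7 CPM in WT DMSO replicate 4 (others 26.0 to 26.8) and at 20.3 CPM in WT torin1 replicate 4 (others 24.3 to 24.7), Sesn2 at 78.6 CPM in WT MK-8722 replicate 2 (others 50.7 to 55.1), and Tsc1 at 67.9 CPM in the same library (others 73.3 to 74.1). The other 2 were Castor1 at 4.06 CPM in WT DMSO replicate 2 (others 4.8 to 4.88) and Deptor at 17.9 CPM in AMPK KO torin1 replicate 1 (others 16.5 to 16.6).

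The response to a drug differed between the genotypes by the test of the difference itself in 8 cases, given here as the log2 response in AMPK KO minus that in WT. For MK-8722 the differences were 1.35 for Ddit4, 1.01 for Sesn2, -1.05 for Deptor and -0.74 for Tsc1. For torin1 they were 1.44 for Ddit4, 0.84 for Sesn2, -0.63 for Castor1 and 0.52 for Deptor. Ddit4, Sesn2 and Deptor were in both sets. The torin1 difference of Deptor lost its call when any 1 of 6 of the 16 libraries was left out, with an adjusted p of up to 0.0978.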

How the results depend on the processing

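Of the 42 called values, 34 kept their call in each fit with the same thresholds and 8 lost it in at least 1. This tally leaves out the fold change of 1.5 and the test against a fold change of 1.2, in which further calls were lost. The count of called genes among the 9 stayed within 1.5 times its reported value except as follows. With MK-8722 in AMPK KO the 2 called became 4 without the filter on low counts, with DESeq2 and with passage as a replicate block, 1 with an offset for transcript length, with the replicate number as a replicate block and at a fold change of 1.5, 0 in a test against a fold change of 1.2, and 1 to 3 without a library. At a fold change of 1.5, 4 were called with MK-8722 in WT, 3 with torin1 in AMPK KO, 3 between torin1 and MK-8722 in AMPK KO and 3 between the genotypes. In the test against a fold change of 1.2, 4 were called with MK-8722 in WT and 1 in the difference of the torin1 responses. Between torin1 and MK-8722 in WT the 3 called became 5 by adjusted p alone and with scaling by library size alone. The fits with a replicate block changed no other count by over 1.5 times. Shares of all tested genes are given here for the main fit alone. A change in these counts thus cannot be told from a general change in calls. The cause of these changes was not tested.

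None of the log2 differences that changed sign was called. Sesn1 with torin1 in AMPK KO (0.02) was -0.0012 with DESeq2 size factors, -0.0048 with DESeq2, -0.022 with the compared libraries alone and -0.031 to 0.034 without a library. Sesn3 between the genotypes (-0.09) was 0.048 with library size alone and 0.0044 with the length offset. With that offset Ddit4l with MK-8722 in AMPK KO was 0.32, Tsc2 between the drugs in AMPK KO -0.12 and Sesn3 in the difference of the torin1 responses -0.16. Sesn3 between the drugs in AMPK KO was -0.012 with the compared libraries alone and -0.078 to 0.069 without a library. Sesn1 in the difference of the MK-8722 responses was 0.010 without a filter, 0.0039 with at least 10 counts in each library and -0.050 to 0.092 without a library. Without a library, Tsc2 in the difference of the torin1 responses was -0.11 to 0.020, Castor1 in that of the MK-8722 responses -0.034 to 0.11, and between the drugs in AMPK KO Tsc2 was -0.021 to 0.049 and Ddit4l -0.40 to 0.042. Ddit4l had 3 to 12 counts per AMPK KO library, and its intervals there are the widest of the 9 genes.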
